A study of Mus musculus with 27 samples.

Results

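The lecticans, link proteins and tenascins of the perineuronal net were followed through 27 RNA libraries of mouse primary cortical cells. The 8 genes were Acan, Bcan, Ncan, Vcan, Hapln1, Hapln4, Tnr and Tnc. They were chosen by gene symbol, 1 entry each, from a table of 59489 entries, 23508 of which carry a symbol. Perineuronal nets are lattices of extracellular matrix that enclose the cell body and proximal dendrites of certain neurons, above all fast-spiking interneurons. A hyaluronan backbone binds chondroitin sulfate proteoglycans of the lectican family, link proteins fasten the lecticans to hyaluronan, and tenascins crosslink the lecticans. Nets form as neuronal circuits mature, and they are known for restricting plasticity in the cortex.

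The cells came from wild-type mouse embryos at day E16.5 and were grown for 14 days, and all 9 groups of 3 libraries had received an inhibitor of transcription. In one experiment that inhibitor was DRB, a blocker of transcription elongation, at 50 µM for 2 h, and cells were left unstimulated or given bicuculline at 20 µM or BDNF at 50 ng/mL for 1 h. In the other it was triptolide, a blocker of transcription initiation, at 1 µM for 3 h, and unstimulated and bicuculline-treated cells were each measured as whole cells, nuclei and cytosol. Bicuculline blocks GABA-A receptors and so raises network activity, and BDNF is the ligand of the TrkB receptor. The labels name no fraction for the DRB libraries. Levels are FPKM, fragments counted per length of transcript and per total of mapped fragments, so that genes can be compared. It is relative to the total of each library, so a nuclear and a cytosolic value are shares of different totals and not amounts per cell.

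Depth was about 83400000 to 148000000 fragments a library under DRB and 67600000 to 89500000 under triptolide, as read from the steps between low values. The 3 libraries of a group carry replicate numbers. Nothing states outright that they came from separate cultures, so p-values measure the spread between these libraries. Markers of excitatory neurons (Slc17a7, 123 to 307 FPKM), inhibitory neurons (Gad1, 57.8 to 186 FPKM) and astrocytes (Slc1a3, 210 to 329 FPKM) were present in every library. Pvalb, which marks the fast-spiking interneurons that carry most cortical nets, was at 0.226 to 0.625 FPKM. Lhx6, from the same list of 10 interneuron markers, was at 0.732 to 5.01 FPKM. Of that list, 8 genes averaged at least 1 FPKM in nuclei and 9 in each other group. It includes Gad1, Gad2 and Slc32a1, which are not particular to fast-spiking cells. The microglial gene Cx3cr1 was at 0.00514 to 0.489 FPKM. The list of 7 microglial markers that includes it summed to 2.38 to 9.82 FPKM over the libraries. Of these 7, 1 averaged at least 1 FPKM in each DRB group and 3 in each triptolide group. In bulk RNA, fewer cells of a type and less RNA per cell cannot be told apart. As a check of the fractions, 6 of 6 nuclear RNAs were higher in nuclei than in cytosol, with a median log2 difference of 3.11. Of 6 RNAs listed as cytosolic, 0 were lower in nuclei and 1 was higher (3 lower and 1 higher with replicate number as a block), with a median of -0.11, so this list did not mark the cytosol of unstimulated cells. After bicuculline 4 of the 6 were lower in nuclei.

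The promoter sequences of Acan and Hapln1 are shown because these were the members with the lowest nuclear share in unstimulated cells, and because their levels followed each other across libraries. Both are RefSeq sequences on GRCm38.p6, plus strand, from 250 bases before to 50 after the annotated start, at chr7:79052976-79053275 for Acan and chr13:89540386-89540685 for Hapln1. Capitals mark a GC box (GGGCGG) or a CCAAT box (CCAAT) on either strand, and in Acan 2 of the 3 GC boxes overlap each other.
Acan: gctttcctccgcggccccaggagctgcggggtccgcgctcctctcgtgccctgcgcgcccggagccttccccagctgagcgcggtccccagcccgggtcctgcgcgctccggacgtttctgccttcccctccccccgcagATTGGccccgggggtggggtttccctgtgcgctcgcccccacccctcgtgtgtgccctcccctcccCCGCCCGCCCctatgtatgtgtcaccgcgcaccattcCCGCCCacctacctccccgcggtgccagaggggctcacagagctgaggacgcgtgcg
Hapln1: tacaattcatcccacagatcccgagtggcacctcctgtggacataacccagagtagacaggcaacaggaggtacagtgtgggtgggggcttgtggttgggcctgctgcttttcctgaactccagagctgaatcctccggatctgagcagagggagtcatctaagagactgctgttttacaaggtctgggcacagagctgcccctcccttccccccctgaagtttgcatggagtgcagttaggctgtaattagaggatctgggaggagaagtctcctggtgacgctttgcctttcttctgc
The Acan window was 74.0% G and C with 31 CpG, and the Hapln1 window 54.3% with 3 CpG. The median over all promoters of the table was 52.7%. Among 32851 promoters of the same length, a GC box was found in 35.7% and a CCAAT box in 37.4%. The other motifs searched on both strands were TGACGTCA (in 1.79% of promoters), TGANTCA (7.81%), CACGTG (7.15%) and TATAAA (13.6%), and no motif searched contains another. None of these 4 was found in either window. The Hapln1 gene model behind the expression values starts at base 89539796, upstream of the RefSeq window. For the members, 7 of 8 matched the promoter table.

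The 8 genes lay on 6 chromosomes (mm10), and a lectican gene and a link protein gene were neighbours in 4 places. Acan (chr7:79053226-79115099) and Hapln3, a link protein gene that was not among the 8, pointed towards each other with 40 bases between them. Ncan (chr8:70093085-70120844) and Hapln4 (chr8:70083457-70090862) also converged, 2222 bases apart. Vcan (chr13:89655310-89742512) and Hapln1 (chr13:89539796-89611832) converged across 43.5 kb. Bcan (chr3:87987531-88000356) and Hapln2 lay on the same strand with 21.4 kb between them. Tnr (chr1:159523768-159925292) was the longest gene at 402 kb and Hapln4 the shortest at 7.41 kb. Tnc (chr4:63959785-64047015) overlaps 8030451A03Rik on the opposite strand over 67162 bases, and Tnr overlaps Gm10530 on its own strand over 70128 bases. Acan, Vcan and Hapln1 overlap antisense or pseudogene models on the opposite strand over 98, 3053 and 1264 bases, in Gm26633, Gm4117 and Gm8546. The strand setting of the counting is not given in the sources used here, so fragments of these pairs cannot be told apart.

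Among the lecticans, Ncan (neurocan) and Bcan (brevican), the lecticans typical of brain, were by far the most abundant. Their means over 27 libraries were 170.4 and 141 FPKM, above 97.8% and 97.1% of 14641 expressed entries. Vcan (versican), a large lectican of early matrix, averaged 5.55 FPKM. Acan (aggrecan), the lectican most specific to nets, averaged 2.59 FPKM, above 27.9% of expressed entries. Of the link proteins, Hapln1 averaged 33.1 FPKM and Hapln4, a link protein of brain, 0.838 FPKM. Tnr (tenascin-R), the crosslinker of mature nets, averaged 31.2 FPKM and Tnc (tenascin-C), a tenascin of developing tissue, 11.8 FPKM. The link protein genes that were not among the members were low, with Hapln3 at 1.31 and Hapln2 at 0.0806 FPKM.

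The order of the members was Ncan, Bcan, then Hapln1 and Tnr, then Tnc, Vcan, Acan and Hapln4 in each of the 9 groups, and only the places of Hapln1 and Tnr changed. Neighbours in this order were not always separated by their libraries. Ncan and Bcan overlapped in 6 of 9 groups, and Hapln1 and Tnr in 8 of 9. Acan and Hapln4 overlapped in 3 groups, those under DRB. Bcan stood apart from the next gene in every group. All 8 passed the filter on low values (3 or more libraries of an experiment at 1 FPKM or above) in both experiments. Hapln4 under DRB passed it through the 3 libraries of replicate number 2 alone, whose levels were 1.33, 1.08 and 1.16 FPKM. The depth gave about 79.3 to 674 fragments a library for Hapln4 and 551 to 3351 for Acan, estimated from GENCODE exon lengths.

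**Figure D1:**
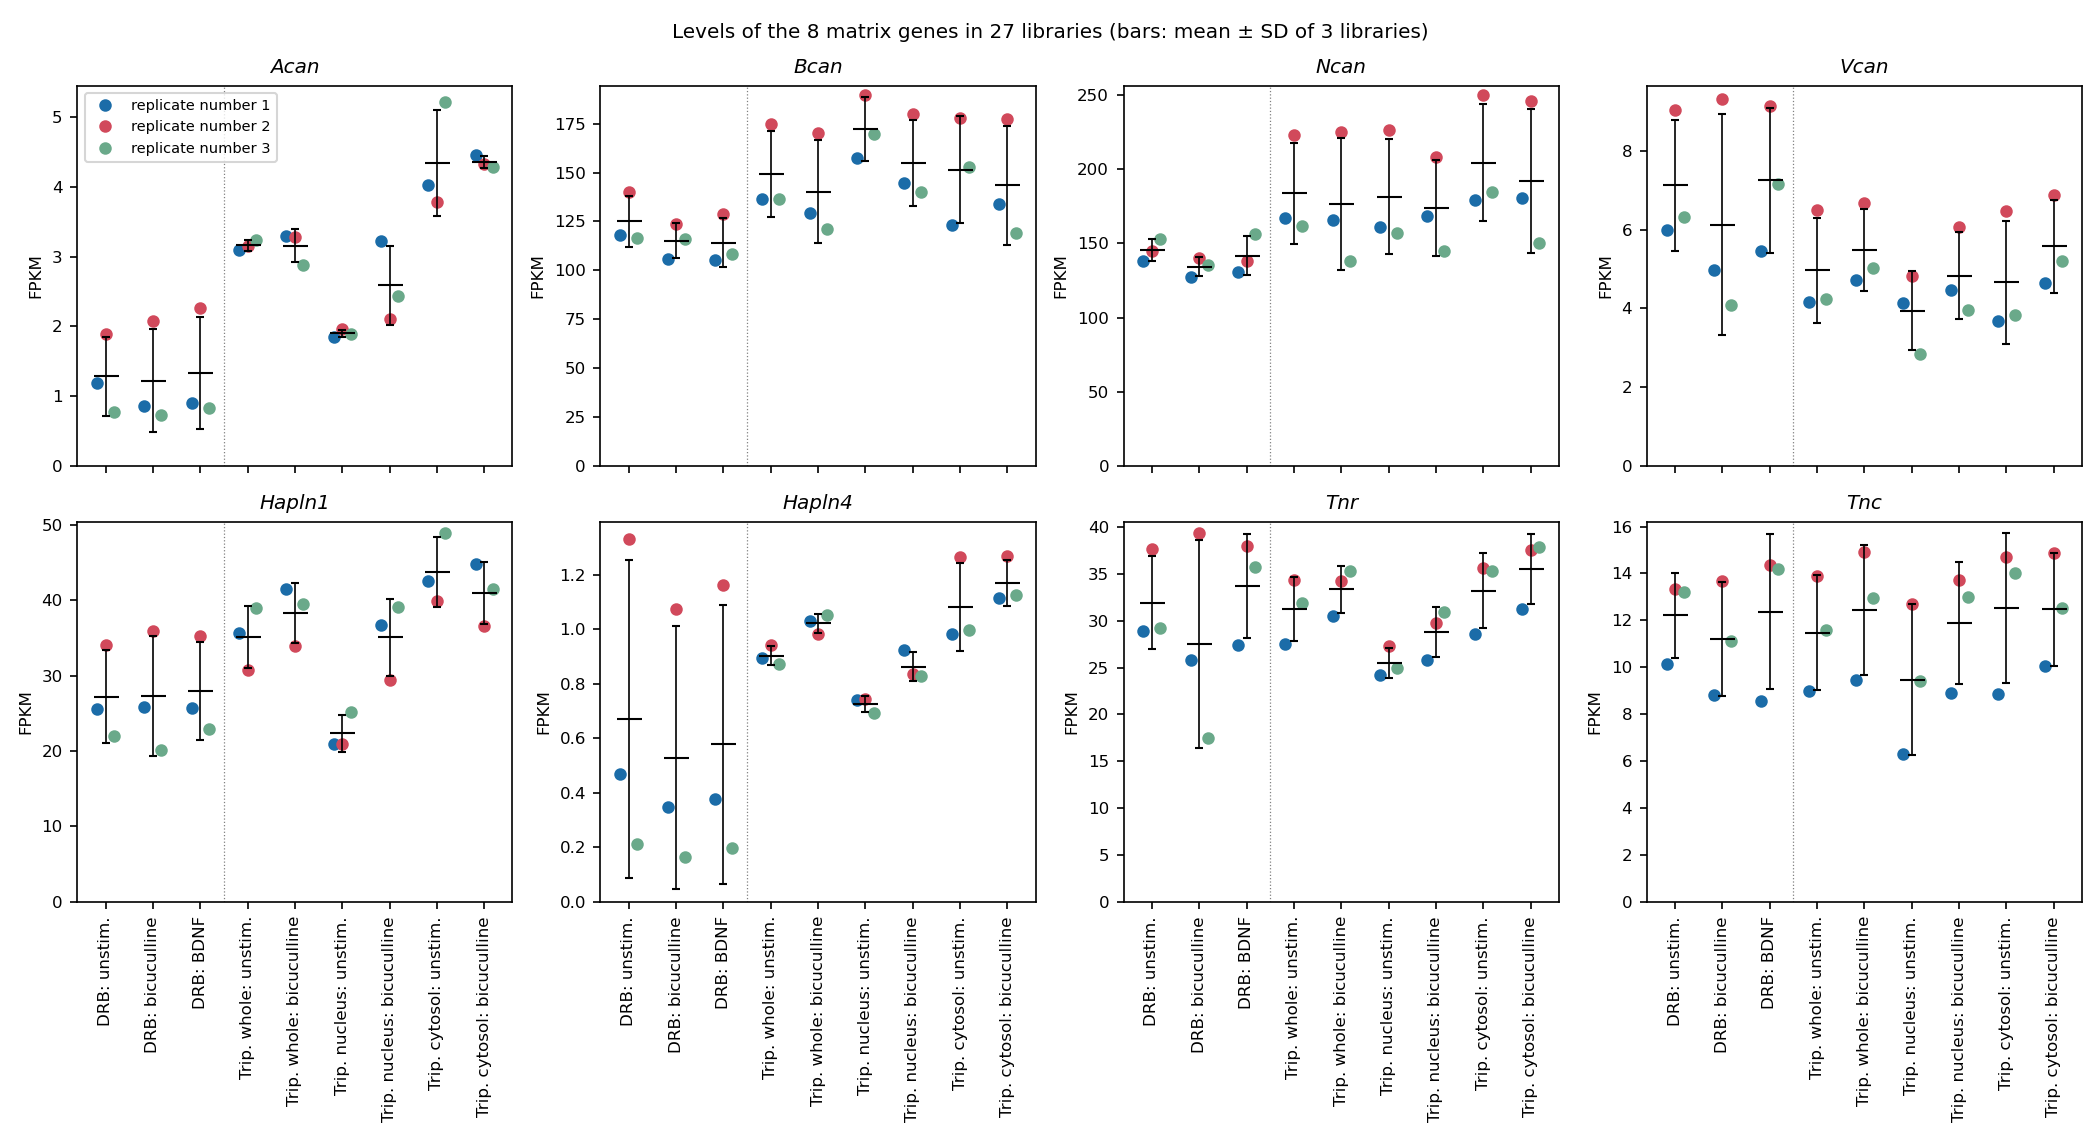
Level of each member in FPKM (vertical axes, linear from 0, 1 scale per gene) in the 27 libraries, by group, with the replicate number as colour and black bars for the mean ± SD of 3 libraries. Under DRB the replicate number 2 libraries of Acan and Hapln4 sit above the others in all 3 groups, and under triptolide the nuclear levels of Hapln1 are lowest in unstimulated cells.

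The libraries of replicate number 2 under DRB were the highest for most members, by margins that differed widely. In unstimulated cells Acan was at 1.18, 1.90 and 0.778 FPKM in replicate numbers 1, 2 and 3, and Hapln4 at 0.468, 1.33 and 0.213 FPKM. Replicate number 2 was the highest in 3 of 3 DRB groups for Acan, Bcan, Vcan, Hapln1, Hapln4, Tnr and Tnc, and in 1 of 3 for Ncan. For Tnc the margin was small, with 13.3 FPKM against 13.2 in the next library of unstimulated cells. How many of all genes were highest in replicate number 2 was not counted in either experiment. The ratio of the highest to the lowest library within a DRB group was 5.95 to 6.58 for Hapln4 and 2.44 to 2.86 for Acan, against 1.10 to 1.20 for Ncan. Under triptolide the ratio was 1.07 to 1.29 for Hapln4 and 1.04 to 1.53 for Acan. There, replicate number 2 was the highest in 6 of 6 groups for Bcan, Ncan, Vcan and Tnc.

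In unstimulated cells Acan was higher under triptolide, in whole cells, than under DRB. It was at 3.09, 3.15 and 3.23 FPKM, a mean of 3.16 ± 0.0738 (SD, n = 3), against 1.29 ± 0.566 FPKM (SD, n = 3) under DRB. All triptolide libraries lay above all DRB libraries, at 2.46 times the mean. Ncan also stood apart, at 184 ± 34.2 against 145 ± 7.30 FPKM (SD, n = 3 each). The libraries of the other 6 members overlapped between the experiments, with ratios of 0.697 (Vcan) to 1.35 (Hapln4). How many of all genes stood apart in this way was not counted, so Acan and Ncan cannot be set against a general share. Markers of the oligodendrocyte lineage also stood apart. The 7 precursor markers summed to 175 to 182 FPKM under DRB and 106 to 107 under triptolide, and the 7 oligodendrocyte markers to 68.0 to 138 and 21.0 to 44.7 FPKM. The 8 vascular and mesenchymal markers summed to 1.64 to 2.29 and 3.63 to 4.65 FPKM, with 1 of the 8 at 0 in every library of each group, and the other cell type lists overlapped. The part of these cells in the difference was not tested. The inhibitor, its duration and the cultures cannot be told apart here, and no test was made.

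Under DRB none of the 8 members passed the test for a change with either stimulus. Hapln1 was at 27.2 ± 6.16 FPKM in unstimulated cells, 27.3 ± 7.98 after bicuculline and 28.0 ± 6.51 after BDNF (SD, n = 3 each), and its libraries overlapped in all 3 groups. Acan was at 1.29 ± 0.566, 1.22 ± 0.742 and 1.33 ± 0.806 FPKM. Ncan, whose libraries varied least, was at 145 ± 7.30, 134 ± 6.43 and 142 ± 13.1 FPKM. No member had libraries that stood apart between stimulated and unstimulated cells, and the share of all genes that did was not counted.

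For bicuculline under DRB, limma with Benjamini-Hochberg adjustment called 0 of 8 members (smallest adjusted p = 1.00), where 0.308% of the 13321 genes tested were called. For BDNF it called 0 of 8 (smallest adjusted p = 1.00) against 0.638% of genes, and for BDNF against bicuculline 0 of 8 (smallest adjusted p = 1.00) against 0.128%. At an unadjusted p under 0.05 there were 0 members in each of these 3 comparisons, against 266, 462 and 347 of the 13321 genes. With replicate number as a block there were 2 after bicuculline (Bcan and Hapln4), 1 after BDNF (Bcan) and 0 between the stimuli. These stood against 958, 1131 and 1096 of the 13321 genes. After adjustment the blocked fit still called no member, where it called 0.571%, 1.49% and 0.540% of all genes.

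The median log2 difference of the members was -0.12 after bicuculline and -0.01 after BDNF, against 0.00 over all genes tested in both. The 2 stimuli were compared with the same 3 unstimulated libraries. The lowest value was that of Tnr after bicuculline, with libraries at 25.8, 39.4 and 17.5 FPKM against 28.9, 37.7 and 29.2 FPKM unstimulated. Only replicate number 3 was far lower, and the log2 difference was -0.28 with a 95% interval of -0.87 to 0.32. Vcan followed at -0.26 (-0.93 to 0.41). The bicuculline intervals were -0.35 to 0.12 for Bcan, -0.29 to 0.06 for Ncan, -0.56 to 0.54 for Hapln1 and -1.22 to 0.88 for Hapln4. With replicate number as a block they were -0.22 to -0.00, -0.23 to 0.00, -0.13 to 0.11 and -0.33 to -0.02.

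**Figure D2:**
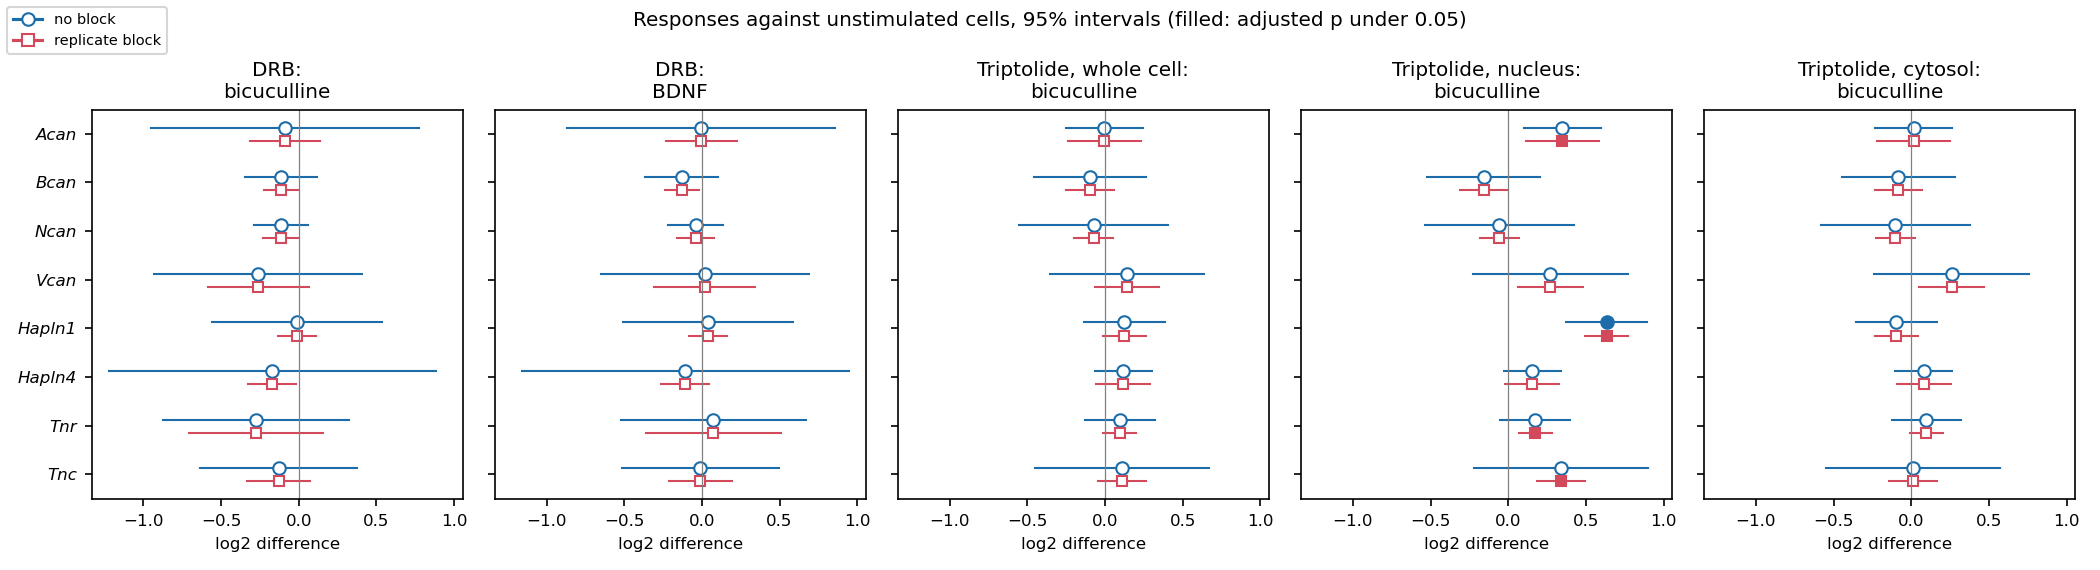
log2 difference (horizontal axes) of each member between stimulated and unstimulated cells in 5 comparisons, with 95% intervals, from limma fits without a block (circles) and with replicate number as a block (squares), filled where the adjusted p is under 0.05. Hapln1 in nuclei, at 0.63, is the only filled circle, and filled squares are seen for Hapln1, Acan, Tnr and Tnc in nuclei.

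In whole cells under triptolide, none of the members passed the test for a change with bicuculline. Hapln1 was at 35.7, 30.8 and 39.0 FPKM unstimulated and at 41.5, 33.9 and 39.6 FPKM after bicuculline in replicate numbers 1, 2 and 3, so that the groups overlapped. Hapln4 was at 0.896, 0.943 and 0.873 FPKM and then at 1.03, 0.983 and 1.05 FPKM. Its 3 bicuculline libraries lay above the unstimulated ones, but its log2 difference of 0.12 ± 0.09 (SE) was not called (limma, adjusted p = 0.698). Of the 8 members 0 had an unadjusted p under 0.05, against 1566 of 14205 genes. After adjustment 0 members and 0.0352% of genes were called (2 higher and 3 lower, or 1 and 3 after median-ratio scaling). The members' log2 differences ran from -0.10 (Bcan) to 0.14 (Vcan), with a median of 0.10 against 0.03 over all genes tested.

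In nuclei, Hapln1, the link protein that fastens lecticans to hyaluronan, rose with bicuculline. Its nuclear level was 21.0, 20.9 and 25.2 FPKM in unstimulated cells and 36.7, 29.4 and 39.1 FPKM after bicuculline, in replicate numbers 1, 2 and 3. Every bicuculline library lay above every unstimulated one, and among the members this also held for Acan and Hapln4. The share of all genes that stood apart in this way was not counted. Within replicate numbers the Hapln1 level after bicuculline was 1.75, 1.41 and 1.56 times the unstimulated level. The means were 22.3 ± 2.43 and 35.1 ± 5.06 FPKM (SD, n = 3 each), and the log2 difference was 0.63 ± 0.12 (SE; limma, adjusted p = 0.0193). Hapln1 lay above 99.8% of the genes tested. It was the 1 member of 8 called, where 1.81% of genes were called in either direction and 0.986% higher.

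The Hapln1 call depended on single libraries in the fit without a block. It was lost when replicate number 1 or 2 of the unstimulated nuclei was left out (adjusted p = 0.0917 and 0.0505) or replicate number 1 or 3 of the bicuculline nuclei (0.0710 and 0.0747). The log2 difference stayed at 0.55 to 0.75. With replicate number as a block the adjusted p was 7.77e-05, and Hapln1 was called without each replicate number in turn (adjusted p = 0.00362 to 0.00822).

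The block raised the number of members that rose in nuclei from 1 to 4, while it raised the share of genes called higher to 7.72%. Tnc was at 6.28, 12.7 and 9.43 FPKM and then at 8.92, 13.7 and 13.0 FPKM, higher within each replicate number although the groups overlapped. Its log2 difference was 0.34, with an SE of 0.26 without the block (limma, adjusted p = 0.557) and 0.0733 with it (adjusted p = 0.00746). Acan was at 1.84, 1.95 and 1.90 FPKM and then at 3.22, 2.11 and 2.44 FPKM, with every bicuculline library above every unstimulated one.

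The Acan difference was 0.35, with an SE of 0.12 without the block (limma, adjusted p = 0.131) and 0.11 with it (adjusted p = 0.0493). Replicate number 1 was the highest of its bicuculline libraries. Tnr was at 24.2, 27.3 and 24.9 FPKM and then at 25.8, 29.8 and 30.9 FPKM. It differed by 0.17, with an SE of 0.11 without the block (limma, adjusted p = 0.431) and 0.0503 with it (adjusted p = 0.0334). With the block and 1 replicate number left out at a time, Acan and Tnc were each called in 1 of 3 fits and Tnr in 0 of 3. Both calls came without replicate number 2, in the fit that called most genes, 1529 of 14205. The fits without replicate numbers 1 and 3 called 70 and 953 genes. Vcan at 0.27, Hapln4 at 0.15, Ncan at -0.06 and Bcan at -0.16 were called in neither fit. The median of the 8 members was 0.22, against -0.02 over all genes tested.

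Cell type markers in nuclei were read in the same way. Without the block 0 of those given here were called, and with it 7.72% of all genes were called higher and 5.39% lower. The 8 excitatory neuron markers had a median log2 difference of 0.31, with 0 called without and 6 called higher with the block, and their summed level was 710 to 816 FPKM unstimulated and 696 to 903 FPKM after bicuculline. The 9 interneuron markers tested had a median of 0.14 (3 called higher with the block), and the whole list of 10 summed to 145 to 168 and 174 to 196 FPKM. That list was drawn up for fast-spiking interneurons, but it includes Gad1, Gad2 and Slc32a1, of inhibitory neurons in general. Its Pvalb was under the filter on low values and was not tested. The 9 astrocyte markers tested had a median of -0.15 (1 called lower with the block), and their list of 10 summed to 734 to 873 and 664 to 795 FPKM. None of the genes of these lists was at 0 in all nuclear libraries of a group. Their part in the change of Hapln1 was not tested.

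In cytosol none of the members passed that test. Hapln1 was at 42.5, 39.9 and 49.0 FPKM unstimulated and 44.8, 36.6 and 41.5 FPKM after bicuculline, and the groups overlapped. Its log2 difference was -0.10, with a 95% interval of -0.35 to 0.16. Acan was at 4.34 ± 0.762 and 4.36 ± 0.0899 FPKM (SD, n = 3 each). Vcan had the highest value, at 0.26 (-0.24 to 0.76). limma gave 0 members an unadjusted p under 0.05, against 2769 of 14205 genes tested. With the block it gave 1 (Vcan), against 4286 of 14205 genes. After adjustment, without the block, it called 0 of 8 members (smallest adjusted p = 0.618), where 3.27% of genes were called. The genes called were 452 higher and 13 lower, but 19 and 12 after median-ratio scaling, which moved the median over all genes from 0.08 to -0.01 and that of the members from 0.01 to -0.09.

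The nuclear and cytosolic responses of Hapln1 were called different with the block and not without it. Within replicate numbers 1, 2 and 3 the nuclear minus the cytosolic log2 response was 0.72, 0.61 and 0.86. The difference was 0.73 ± 0.17 (SE without the block; limma, adjusted p = 0.0727 without and 9.71e-04 with the block), against a median of -0.11 over all genes. With the block, 2.84% of genes were called higher, and Hapln1 was the 1 member. Without the block 0 of 8 members and 0.556% of genes were called (12 higher and 67 lower, or 107 and 46 after median-ratio scaling). There, 1 member, Hapln1, had an unadjusted p under 0.05, as had 2326 of 14205 genes. Leaving out replicate number 3 ended the blocked call (adjusted p = 0.0596). For Acan and Tnc the differences were both 0.33, and neither was called.

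The members differed in how their RNA was shared between nucleus and cytosol. In unstimulated cells Acan and Hapln1 were the most cytosolic. Acan was at 1.84, 1.95 and 1.90 FPKM in nuclei and 4.03, 3.78 and 5.21 FPKM in cytosol. Hapln1 was at 21.0, 20.9 and 25.2 FPKM in nuclei and 42.5, 39.9 and 49.0 FPKM in cytosol. For both genes every cytosolic library lay above every nuclear one. The share of all genes whose fractions stood apart was not counted. The ratio of nuclear to cytosolic FPKM was 0.446 ± 0.0771 for Acan and 0.510 ± 0.0156 for Hapln1 (SD, n = 3 each).

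On the log2 scale Acan was lower in nuclei by -1.0 ± 0.12 (SE; limma, adjusted p = 1.24e-06) and Hapln1 by -0.96 ± 0.12 (adjusted p = 3.91e-06). Only 0.387% and 0.507% of genes tested had lower values. Hapln4 and Tnr were lower too, with ratios of 0.678 ± 0.0851 and 0.772 ± 0.0713 (SD, n = 3 each). Their log2 differences were -0.36 (adjusted p = 0.00143) and -0.37 (adjusted p = 0.00554), and the fractions did not overlap in either. So 4 of 8 members were lower in nuclei and 0 higher, where 67.0% of genes were called in either direction and 28.0% lower. The members' median was -0.37, against 0.06 over all genes tested.

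Bcan was the only member with a mean ratio over 1. Its ratio was 1.28, 1.07 and 1.11 in replicate numbers 1, 2 and 3, and its log2 difference was 0.20 (adjusted p = 0.319 without and 0.0215 with the block). With the block 7 of 8 members were called. Of these 6 were lower, where 33.1% of genes were lower, and Bcan was higher, where 42.8% were higher. The block added Tnc at -0.41 (adjusted p = 0.186 without and 9.85e-05 with it) and Ncan at -0.18 (0.506 and 0.0136). Vcan, with ratios of 1.13, 0.746 and 0.743, was called in neither fit.

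**Figure D3:**
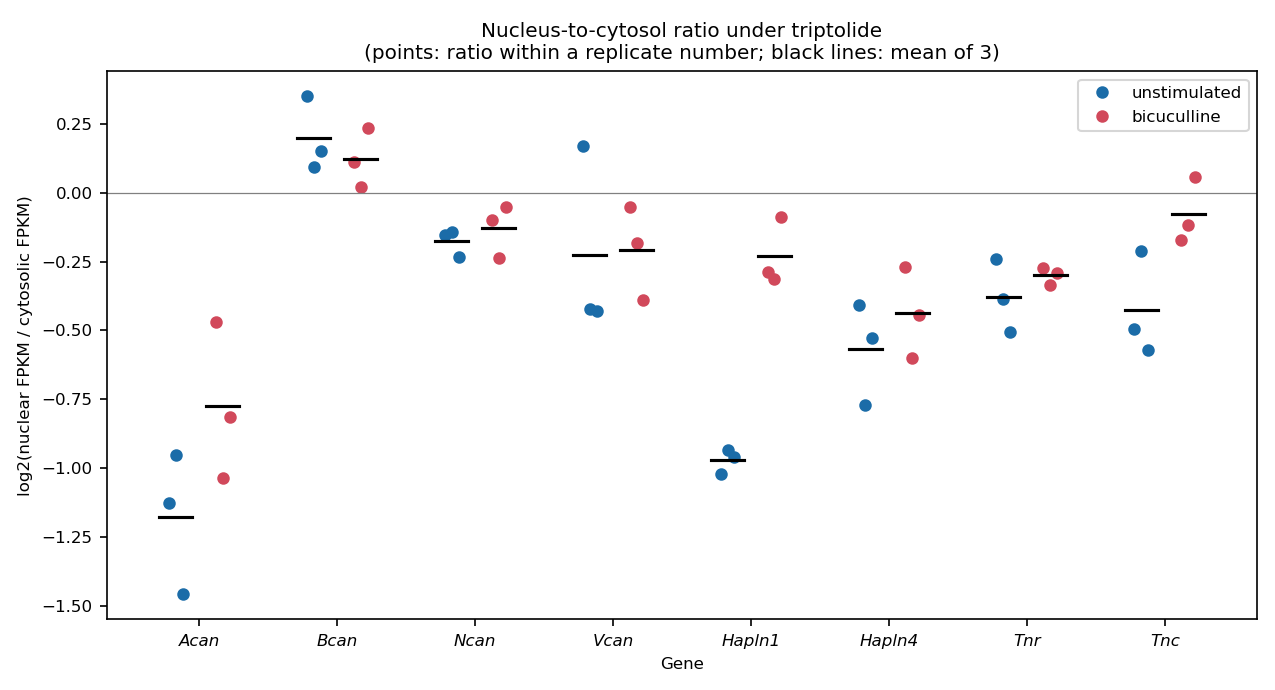
log2 of the nuclear over the cytosolic FPKM (vertical axis, 0 for equal values) of each member within the 3 replicate numbers under triptolide, for unstimulated and bicuculline-treated cells, with black lines for means. Acan and Hapln1 lie lowest in unstimulated cells, Bcan lies above 0 in all 6 pairs, and Hapln1 lies closer to 0 after bicuculline.

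After bicuculline the nuclear share of Hapln1 was closer to that of the other members. Its ratio was 0.819, 0.804 and 0.942 in replicate numbers 1, 2 and 3, where it had been 0.493, 0.524 and 0.514 in unstimulated cells. The 3 ratios after bicuculline lay above the 3 before. The same held for Tnc, at 0.709, 0.864 and 0.672 before and 0.888, 0.922 and 1.04 after. The share of all genes whose ratios parted in this way was not counted. The log2 difference of Hapln1 between fractions was then -0.23 ± 0.12 (SE without the block; adjusted p = 0.118 without and 0.00498 with the block). Acan stayed lower in nuclei, with a ratio of 0.593 ± 0.119 (SD, n = 3) and a log2 difference of -0.67 (adjusted p = 1.19e-04), and only 1.22% of genes had lower values.

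Hapln4 and Tnr were lower in nuclei after bicuculline as well, by -0.29 (adjusted p = 0.00773) and -0.30 (adjusted p = 0.0229). The Tnr call was lost when replicate number 1 of the nuclei or 2 or 3 of the cytosol was left out (adjusted p = 0.107, 0.0818 and 0.0870), and kept with the block. The blocked call of Hapln4 was lost without replicate number 2 (adjusted p = 0.0623). In all 3 of 8 members were lower and 0 higher, where 63.2% of genes were called in either direction and 31.9% lower. With the block 4 of 8 were lower, against 38.8% of genes.

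Markers of cell types were unevenly shared between the fractions, where 28.0% of all genes were lower in nuclei and 39.0% higher. In unstimulated cells 8 of 9 interneuron markers, tested without Pvalb, were lower in nuclei, with a median log2 difference of -1.11. The whole list, which includes Gad1 and Gad2, summed to 145 to 168 FPKM in nuclei and 290 to 371 FPKM in cytosol. The excitatory neuron markers had a median of -0.43 (6 of 8 lower, 1 higher), although the list summed to 710 to 816 FPKM in nuclei and 538 to 581 in cytosol. The astrocyte markers had a median of 0.33 (4 of 9 higher, close to the share over all genes, and 0 lower), and the list summed to 734 to 873 and 629 to 759 FPKM. The part of these cell types in the members' ratios was not tested.

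Hapln3, the link protein gene 40 bases from the end of Acan, was shared the opposite way. It was at 2.58, 2.37 and 2.41 FPKM in nuclei and 1.06, 0.952 and 0.940 FPKM in unstimulated cytosol. Its ratio was 2.43, 2.49 and 2.57, and its log2 difference 0.99 (adjusted p = 2.19e-06). Every nuclear library lay above every cytosolic one, the reverse of Acan.

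The wider matrix genes were read from 5 lists. With bicuculline 0 of their genes were called under DRB, and 0 in whole cells or cytosol under triptolide. With the block there were still 0 under DRB, but 1 receptor rose in whole cells (4.23% of all genes called), and in cytosol 1 receptor rose and 1 net component and 1 protease or inhibitor fell (15.3% of all genes called). In nuclei, without the block, 3 rose and 0 fell. Rtn4r, the Nogo receptor, which also binds chondroitin sulfate, went from 7.22 to 11.1 FPKM (log2 0.59, adjusted p = 0.00412). Chst15, which sulfates chondroitin chains, went from 2.70 to 3.64 FPKM (0.37, adjusted p = 0.0386). Spock1, the proteoglycan testican-1, went from 79.0 to 95.6 FPKM (0.28, adjusted p = 0.0309). These were 1 of 16 matrix receptors, 1 of 19 chondroitin sulfate genes and 1 of 13 other net components tested. Over all genes tested 0.986% were called higher. With the block 5, 4 and 4 genes of these lists rose, as did 2 of 14 proteases and inhibitors and 1 of 6 hyaluronan genes, against 7.72% of all genes. With the block 1 chondroitin sulfate gene and 1 protease or inhibitor also fell, against 5.39% of all genes.

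Between the fractions of unstimulated cells, 8 of 13 other net components were lower in nuclei and 1 was higher, with a median of -0.48, where 28.0% of all genes tested were lower, 39.0% were higher and the median was 0.06. Spock3 (testican-3) was at 19.9 FPKM in nuclei and 52.8 in cytosol (log2 -1.38, adjusted p = 3.55e-10). Sema3a, a repulsive guidance cue that binds nets, was at 9.22 and 17.4 FPKM (-0.88, adjusted p = 4.78e-04), and Spock1 at 79.0 and 139 FPKM (-0.81, adjusted p = 7.76e-09). Hapln3 was the gene that was higher.

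The chondroitin sulfate genes were lower in nuclei in 10 of 19 and higher in 3, against 28.0% and 39.0% of all genes, with a median of -0.23. Chpf, a chain polymerizing factor, was at 24.2 and 35.7 FPKM (-0.55, adjusted p = 9.48e-07). Slc35d1, a carrier of nucleotide sugars, was at 7.25 and 2.80 FPKM (1.24, adjusted p = 2.36e-08). Xylt1, which starts the chains, was at 19.6 and 12.8 FPKM (0.63, adjusted p = 0.0127).

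Of the matrix proteases and their inhibitors 5 of 14 were higher and 5 lower, close to the 39.0% and 28.0% of all genes, with a median of -0.00. Adamts9 was at 3.50 FPKM in nuclei and 0.784 in cytosol (1.64, adjusted p = 2.32e-07), and Adamts8 at 4.03 and 8.52 FPKM (-0.99, adjusted p = 9.51e-05). The inhibitors Timp3 and Timp2 parted, at 28.5 and 15.4 FPKM (0.86, adjusted p = 8.75e-07) and at 166 and 235 FPKM (-0.50, adjusted p = 4.12e-06). Of the hyaluronan genes 3 of 6 were higher and 1 lower (median 0.35), against the same shares of all genes. Cemip, which takes part in breaking down hyaluronan, was at 9.12 and 14.7 FPKM (-0.65, adjusted p = 0.00229).

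Of the matrix receptors 3 of 16 were higher and 6 lower in nuclei, against 39.0% and 28.0% of all genes, with a median of 0.05 that became -0.03 after median-ratio scaling. Cntn1, a contactin that binds tenascins, was at 123 and 228 FPKM (-0.89, adjusted p = 2.82e-07), and Rtn4r at 7.22 and 11.3 FPKM (-0.62, adjusted p = 7.20e-06). Sdc4, a syndecan, was at 15.3 and 9.72 FPKM (0.63, adjusted p = 4.13e-05). After bicuculline the counts were 7 lower and 1 higher of 13 net components, 4 and 3 of 19 chondroitin sulfate genes, 3 and 5 of 14 proteases and inhibitors, 1 and 1 of 6 hyaluronan genes, and 5 and 3 of 16 receptors, where 31.9% of all genes were lower and 31.3% higher.

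Across the 27 libraries the members did not share 1 pattern. Acan and Hapln4 had the highest Pearson correlation of log2(FPKM + 0.5), at 0.87, followed by Acan and Hapln1 at 0.85 and by Bcan and Ncan at 0.84. Acan and Vcan had the lowest, at -0.16. The points share replicate numbers, fractions and the 2 experiments, so these values are a description. Replicate number 3 was the lowest in all 3 DRB groups for Acan, Hapln1 and Hapln4.

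**Figure D4:**
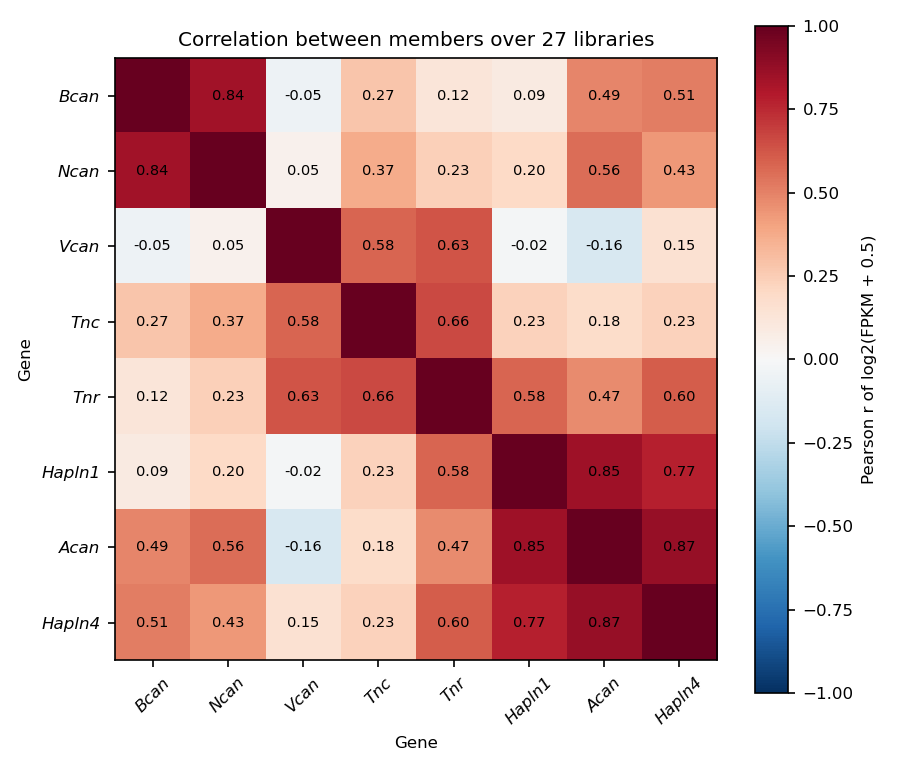
Pearson correlation of log2(FPKM + 0.5) between each pair of members over the 27 libraries, with the value printed in each cell and colour from -1 to 1. Acan, Hapln1 and Hapln4 correlate at 0.77 to 0.87 with each other, Bcan and Ncan at 0.84, and Vcan with Acan at -0.16.

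Among 12176 named genes, those whose level followed a member most closely over the 27 libraries differed from member to member. For Acan they were Adcy3 (Pearson r = 0.960), Adam23 (0.959) and Syt12 (0.955). For Hapln1 they were Trpc1 (0.938), Grin1 (0.926) and Cdh8 (0.912), and those for Hapln4 included Cdh20 (0.915) and Vezt (0.904). For Bcan they included Fads2 (0.888) and Cyp7b1 (0.881), and for Ncan they were Fbln1 (0.924), Hopx (0.889) and Fgfbp3 (0.879). For Tnr they were Slc4a8 (0.922), Kcnma1 (0.913) and Sema5a (0.906). Vcan came with Plxna1, Myrf and Dcp2 (0.878, 0.876 and 0.876). Tnc had the loosest partners, with Ptpru (0.784), Neo1 (0.782) and Sema5a (0.761).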

How the data were processed

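Polyadenylated RNA was measured in 27 libraries. The authors deposited 1 table of FPKM values on FASTDB gene models (mm10), and per the submitters' processing notes FastQC, Picard, SAMtools and STAR 2.4.0 were used. No source used here states the counting program or its strand setting. All 27 sample columns matched a label, and 0 were unused.

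From these values, log2(FPKM + 0.5) was tested with limma 3.58.1 (R 4.3.3, trended and robust variances, Benjamini-Hochberg threshold 0.05), separately for DRB (13321 entries) and triptolide (14205 entries), on entries with at least 1 FPKM in at least 3 libraries. The procedure was also run on simulated data. Those libraries were drawn independently, so that run does not cover the likeness of same-numbered libraries described below. A log2 difference on this scale understates the change of low genes. Replicate numbers in the titles pair the libraries, since the descriptions give same-numbered libraries of an experiment the same tag. Deviations from group means correlated at 0.463 to 0.902 in 9 same-numbered pairs under DRB and at 0.256 to 0.692 in 45 under triptolide, and a fit with replicate number as a block was the alternative. Others were pseudocounts of 0.1 and 1, no filter, median-ratio scaling and leaving out libraries. Leaving out a whole replicate number with the block was chosen after seeing the data.

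Members and lists were chosen with earlier results of these data known. Named genes were the 8 members, Hapln2 and Hapln3, up to 3 called rises and 3 falls of each matrix list, and the 3 genes most correlated with each member. In the text some of these are given as counts alone. Some of the correlated genes are not reported here. Python 3.11.15 drew the figures.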

Additional observations from a re-analysis of the deposited data

Results flagged for a closer look

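The bicuculline response of Hapln1 under triptolide differed between nucleus and cytosol by 0.73 on the log2 scale, a difference that limma called once replicate number was a block (adjusted p = 9.71e-04). It was positive in 3 of 3 replicate numbers. The fit without the block did not call it (adjusted p = 0.0727).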

How the results depend on the processing

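No called member changed sign under any alternative run. With replicate number as a block the genes called rose from 41 to 76 (bicuculline under DRB), 85 to 199 (BDNF), 17 to 72 (BDNF against bicuculline), 5 to 601 (triptolide whole cell), 257 to 1862 (nucleus), 465 to 2175 (cytosol) and 79 to 1387 (nucleus minus cytosol). Members called went from 1 to 4 in nuclei, from 4 to 7 between fractions of unstimulated cells and from 0 to 1 for nucleus minus cytosol. Between fractions after bicuculline they went from 3 to 4, and the block changed no other call of a member. A pseudocount of 1 left 3 genes in whole cells. With no filter the counts were 561 (nucleus), 106 (cytosol), 19387 and 16850 (nucleus against cytosol, unstimulated and bicuculline, from 9511 and 8983) and 29 (nucleus minus cytosol). Median-ratio scaling gave 31 in cytosol and 153 for nucleus minus cytosol, with 1 member, Hapln1 (0.83, adjusted p = 0.0415). The cause was not tested.

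Leaving out 1 library without the block gave 27 to 35 genes for bicuculline under DRB, 52 to 69 for BDNF, 9 to 20 between the stimuli, 1 to 5 in whole cells, 21 to 524 in nuclei, 12 to 334 in cytosol and 9 to 671 for nucleus minus cytosol. Members called were 0 to 2 in nuclei and 0 to 1 for nucleus minus cytosol. Leaving out replicate number 1, 2 or 3 with the replicate block gave 22, 52 and 104 genes for bicuculline under DRB, 40, 107 and 196 for BDNF, and 0, 46 and 82 between the stimuli. Under triptolide these fits gave 6, 28 and 10 in whole cells, 70, 1529 and 953 in nuclei, 52, 1174 and 213 in cytosol, and 3, 1384 and 11 for nucleus minus cytosol. Members called were then 1, 3 and 1 in nuclei, 7, 6 and 7 between fractions of unstimulated cells, 5, 2 and 5 after bicuculline, and 1, 2 and 0 for nucleus minus cytosol. Uncalled member values changed sign in 77 of 480 results without 1 library, 17 of 216 without a replicate number, 4 of 72 with median-ratio scaling and 1 of 72 with a pseudocount of 1. Depth limits Hapln4 most, at about 79.3 fragments in its lowest library.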
